A study of Homo sapiens with 12 samples.

Results

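Alpha and beta tubulin isotypes were followed as 10 genes in a count table of 28278 gene symbols. The genes were chosen by name, as the alpha tubulins TUBA1A, TUBA1B, TUBA1C and TUBA4A and the beta tubulins TUBB, TUBB2A, TUBB2B, TUBB3, TUBB4A and TUBB4B, and all 10 passed the filter on low counts in each comparison. The cells came from WA09-Islet1-GFP, a single human embryonic stem cell line of wild-type genotype in which the Islet1 promoter drives green fluorescent protein (GFP), so that GFP marks motor neurons and other cells that use this promoter. The line was differentiated to motor neurons and exposed for 16 hours to cis-chlordane, an organochlorine pesticide, or to the solvent DMSO alone. The labels give the dose as 10 µM, while the study's methods name a higher one. Cells were then sorted by GFP, which gave 4 groups of 3 libraries, as each sort fraction was taken with and without cis-chlordane. The 3 libraries of a group are labelled as biological replicates, which the study describes as independent thaws of this 1 line.

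Alpha and beta tubulin form the heterodimer from which microtubules are built, the tracks of axonal transport and the material of the mitotic spindle. The isotypes are encoded by separate genes and differ most in the acidic tail at the carboxyl end, where enzymes add or remove tyrosine and glutamate residues. Neurons are known for high TUBA1A and TUBB3, while TUBB4B and TUBA1C are widely used outside the nervous system. Cells also adjust tubulin mRNA to the pool of free tubulin: TTC5 binds the start of the growing tubulin chain and, through SCAPER and the CCR4-NOT complex, the mRNA is degraded.

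The last 60 coding bases of TUBA4A and the 6 beta tubulins, stop codon included, are shown because they encode the tail in which the isotypes differ. They were read 5′ to 3′ from hg38 at the GENCODE 44 models, and capitals mark the last codon before the stop. The stretch of TUBA4A lies at chr2:219250352-219250411 on the minus strand. Those of the beta tubulins lie at chr6:30724338-30724397 on the plus strand for TUBB, chr6:3153863-3153922 and chr6:3224751-3224810 on the minus strand for TUBB2A and TUBB2B, chr16:89935745-89935804 on the plus strand for TUBB3, chr19:6495164-6495223 on the minus strand for TUBB4A and chr9:137243497-137243556 on the plus strand for TUBB4B.
TUBA4A: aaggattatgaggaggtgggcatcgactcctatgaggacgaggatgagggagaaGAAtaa
TUBB: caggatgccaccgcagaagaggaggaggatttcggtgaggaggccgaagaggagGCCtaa
TUBB2A: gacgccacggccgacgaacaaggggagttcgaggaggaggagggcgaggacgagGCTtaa
TUBB2B: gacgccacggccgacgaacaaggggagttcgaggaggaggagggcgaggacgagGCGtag
TUBB3: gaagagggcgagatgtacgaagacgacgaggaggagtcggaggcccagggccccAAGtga
TUBB4A: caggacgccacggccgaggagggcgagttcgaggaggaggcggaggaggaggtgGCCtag
TUBB4B: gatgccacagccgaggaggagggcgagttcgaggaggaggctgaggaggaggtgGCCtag

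TUBA4A, the only alpha tubulin shown, ended in a glutamate codon. The tails shown held between 7 glutamate codons, in TUBA4A, and 10, in TUBB4B, among their 19 sense codons.

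The likeness of the isotypes limits how well reads of 100 bases can be told apart. Over the whole coding sequence, TUBA1A and TUBA1B were 97.2% identical and TUBB2A and TUBB2B 98.1%, while TUBB and TUBB3 shared 82.8% of their bases. Of the 100-base windows of each canonical transcript, 55.6% of TUBB2A and 48.7% of TUBB2B were found unchanged elsewhere on the chromosomes or in another gene. The same held for 37.2% of the windows of TUBA1B, 21.2% of TUBA1A and 12.3% of TUBA1C. The share was 5.35% for TUBB3, 3.01% for TUBB4B, 1.95% for TUBA4A and 0 for TUBB4A. For TUBB it was 5.42%, but 88.1% of its windows also recurred on 7 alternate contigs of hg38, since TUBB lies in the major histocompatibility region. How reads that match several places were counted is not given in the sources used here. CPM stands for counts per 1000000 counts, unscaled in the next sentence and scaled further on. In the table, 7 of the 19 protein-coding genes within 250000 bases of TUBB reached a mean of 1 CPM, against 67.0% of all protein-coding genes. The level of TUBB is therefore given as uncertain, and the split among TUBA1A, TUBA1B and TUBA1C and between TUBB2A and TUBB2B likewise. Of the windows of TUBA1B, 18.5% were shared with TUBA1A and 18.6% with TUBA1C. Of those of TUBA1C, 4.66% were shared with TUBA1A and 10.4% with TUBA1B. TUBA1A and TUBA1C also overlap on opposite strands, as do TUBA4A and STK16, TUBB2A and BPHL, and TUBB2B and PSMG4, and whether strand was used in counting is not given.

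**Figure D1:**
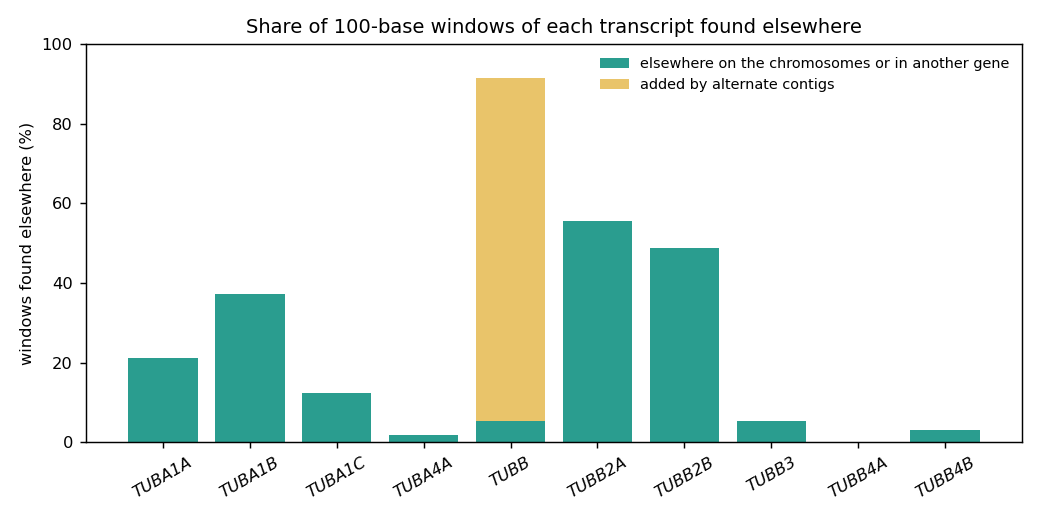
Share of the 100-base windows of each member's canonical transcript (vertical axis, percent) that was found elsewhere in hg38 or in another transcript. The green part counts the chromosomes and other genes and the yellow part what alternate contigs add. The bars of TUBB2A and TUBB2B reach 55.6% and 48.7%, that of TUBB reaches 91.6% through alternate contigs, and TUBB4A has none.

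The libraries held between 23414935 and 38347050 counts assigned to genes. The labelled cell type was checked against its markers: the summed level of 8 motor neuron markers was 1718 to 2319 CPM in control GFP positive libraries and 274 to 301 CPM in control GFP negative ones. After treatment these sums were 543 to 864 CPM and 105 to 125 CPM. Between control sorts, at the limits given below, 7 of these 8 markers were called higher in GFP positive cells and 1 lower. Of all genes, 7.47% and 15.3% were. Between treated sorts 5 were called higher and 1 lower, against 10.0% and 13.7% of genes. ISL1, whose promoter drives GFP, measured 66.1, 62.4 and 68.6 CPM in control GFP positive libraries and 8.01, 15.3 and 12.6 CPM in treated ones. The summed level of 8 genes of dividing cells was 655 to 857 CPM in control GFP negative libraries, 218 to 316 CPM in treated ones, 83.5 to 120 CPM in control GFP positive libraries and 52.2 to 56.4 CPM in treated ones. The third control GFP negative library stood apart in 8 red blood cell markers, which summed to 2545 CPM against at most 98.0 CPM in any other library, and in 7 megakaryocyte and platelet markers, which summed to 11.6 CPM against at most 5.15 CPM. Among these 7 markers, and so within that sum, TUBB1, the beta tubulin of platelets, had 73 counts there against at most 5 in any other library. ITGA2B, also of the 7, measured 4.04 CPM there but 5.07 CPM in treated GFP positive replicate 2.

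In control GFP positive cells, TUBA1A was the leading alpha tubulin and TUBB3 the leading beta tubulin. Levels of single genes are set against each other here only per length, as CPM per kilobase of the canonical transcript. The sums and shares given further on are not scaled by length. On that scale TUBA1A stood at 9589 ± 1842 (SD, n = 3), TUBA1B at 723 ± 159, TUBA1C at 54.3 ± 24.4 and TUBA4A at 1.15 ± 0.31. TUBB3 stood at 5575 ± 1175, followed by TUBB2B at 1146 ± 86.2, TUBB2A at 606 ± 177, TUBB4A at 369 ± 63.3, TUBB4B at 242 ± 52.1 and TUBB at 34.3 ± 1.44. No neighbours in these orders overlapped in their ranges over the 3 libraries. The alpha order was the same in all 4 groups. Among the beta tubulins, TUBB3 led and TUBB2B followed in each group and TUBB was last. TUBB4A stood above TUBB4B in control GFP positive cells, the ranges of TUBB4A and TUBB4B overlapped in treated GFP positive cells, and TUBB4B stood above TUBB4A in both GFP negative groups. TUBB2A and TUBB4B overlapped in treated GFP negative cells.

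The first question was how cis-chlordane changed tubulin mRNA in GFP positive cells, and 9 of the 10 isotypes were lower in every treated library than in any control library, while TUBA4A was higher in every one. TUBB4A fell most, followed by TUBA1A and TUBB3, the leading alpha and beta tubulins of these neurons. The place of TUBB3 was not kept with the trend of counts with GC content removed from each library. TUBB3 then changed by -0.85 on the log2 scale, while TUBA1B changed by -0.95 or more strongly in every fit. TUBA1B and TUBA1C, the other TUBA1 genes, also fell more than 2-fold. In the edgeR test across 15333 genes, with a call set at an adjusted p below 0.05 plus a change of 2-fold or more, 5 members were called lower, where 11.2% of all genes tested were, and 1 was called higher, where 12.8% were. At an adjusted p under 0.05 with no limit on fold, 9 members passed as lower, TUBB2B narrowly, against 24.4% of all genes, and 1 rose, against 26.5%. Groups that did not overlap, with all treated libraries lower, were seen in 30.6% of all genes, and with all treated libraries higher in 26.9%. The median log2 fold change was -0.98 over the members and 0.03 over all genes tested. In sorted bulk samples, fewer cells of a type and less RNA per cell cannot be told apart, and 6 of 8 motor neuron markers were called lower in the same libraries.

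TUBB4A, a beta tubulin known from the brain, measured 776, 1005 and 739 CPM in the 3 control GFP positive libraries and 212, 288 and 183 CPM in the treated ones. All treated values lay below all control values. The fall was 3.52-fold, a log2 change of -1.82 ± 0.18 (standard error, n = 3 against 3, edgeR adjusted p = 1.36e-10). TUBB4A was also the only member without any window shared with another gene. In the GFP negative cells it measured 346, 400 and 393 CPM in controls and 125, 140 and 134 CPM after treatment, again without overlap.

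TUBA1A, the alpha tubulin that leads in young neurons, measured 14230, 19589 and 14282 CPM in control GFP positive libraries. The treated libraries held 5015, 7621 and 5127 CPM. Replicate 2 was the highest in both groups, and the groups did not overlap. TUBA1A fell 2.58-fold, a log2 change of -1.37 ± 0.18 (edgeR adjusted p = 5.56e-08).

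TUBB3, the class III beta tubulin used as a marker of neurons, measured 8903, 11748 and 7880 CPM in control GFP positive libraries. The treated ones held 3265, 4610 and 3239 CPM, all below the controls. TUBB3 fell 2.45-fold, a log2 change of -1.29 ± 0.17 (edgeR adjusted p = 1.41e-07). Its transcript has the highest GC content among the members, 62.2%, and with the trend of counts with GC content removed from each library the change was -0.85 on the log2 scale, still at an adjusted p of 0.000125 by edgeR but under 2-fold. The summed level of 10 neuron markers was 15105 to 19564 CPM in these controls and 11432 to 14770 CPM after treatment.

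TUBA1B, a broadly expressed alpha tubulin, measured 987, 1471 and 1074 CPM in controls and 424, 595 and 509 CPM after treatment. It fell by 1.14 on the log2 scale (edgeR adjusted p = 1.09e-06). TUBA1C measured 114, 233 and 112 CPM in controls and 66.2, 75.2 and 58.6 CPM after treatment. Control replicate 2 was the highest, and the groups did not overlap. TUBA1C fell by 1.13 (edgeR adjusted p = 1.54e-05). Without control replicate 2 the log2 changes were -0.95 for TUBA1B and -0.71 for TUBA1C, both with an edgeR adjusted p under 0.05 but no longer past 2-fold. Tested against a fold change of 2 rather than 0, by edgeR's glmTreat, TUBA1A, TUBB4A and TUBA4A stayed called, and TUBA1B, TUBA1C and TUBB3 did not.

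The other beta tubulins fell by less than 2-fold. TUBB4B, a widely expressed isotype, went from 347, 470 and 316 CPM to 166, 206 and 236 CPM, a log2 change of -0.83 ± 0.17 (edgeR adjusted p = 0.000122). TUBB2A measured 923, 1289 and 727 CPM in controls and 693, 620 and 507 CPM in treated libraries, a log2 change of -0.63 ± 0.18 (edgeR adjusted p = 0.00367). TUBB2B, its near-identical neighbour on chromosome 6, changed least of the members: 2341, 2246 and 2019 CPM became 1473, 1879 and 1502 CPM. Its log2 change was -0.38 ± 0.16 (edgeR adjusted p = 0.0453). It missed an edgeR adjusted p of 0.05 without control replicate 1 or 2 or treated replicate 1 or 3, at 0.0616 to 0.173, and with library size alone, with no filter and with at least 10 counts in every library, at 0.0864, 0.0511 and 0.0611. Without control replicate 2 the change of TUBB2A was -0.38 (edgeR adjusted p = 0.0716). TUBB, with the uncertain level described above, measured 82.2 to 89.1 CPM in controls and 47.4 to 69.2 CPM after treatment, a log2 change of -0.58 ± 0.17 (edgeR adjusted p = 0.00506). With the GC trend removed, the changes of TUBB2A and TUBB2B were -0.27 and -0.13, with edgeR adjusted p of 0.142 and 0.432.

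TUBA4A, an alpha tubulin known from platelets and brain, was the exception. Its control GFP positive libraries held 2.20, 3.07 and 1.82 CPM, from 59, 106 and 57 counts. The treated ones held 9.30, 8.91 and 18.4 CPM, from 310, 311 and 695 counts, all above the controls. TUBA4A rose 5.39-fold, a log2 change of 2.43 ± 0.28 (edgeR adjusted p = 4.15e-09), and leaving out any 1 library kept it between 2.00 and 2.67. Even after the rise it stood at 5.96 ± 2.62 CPM per kilobase, against 3541 ± 881 for TUBA1A.

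**Figure D2:**
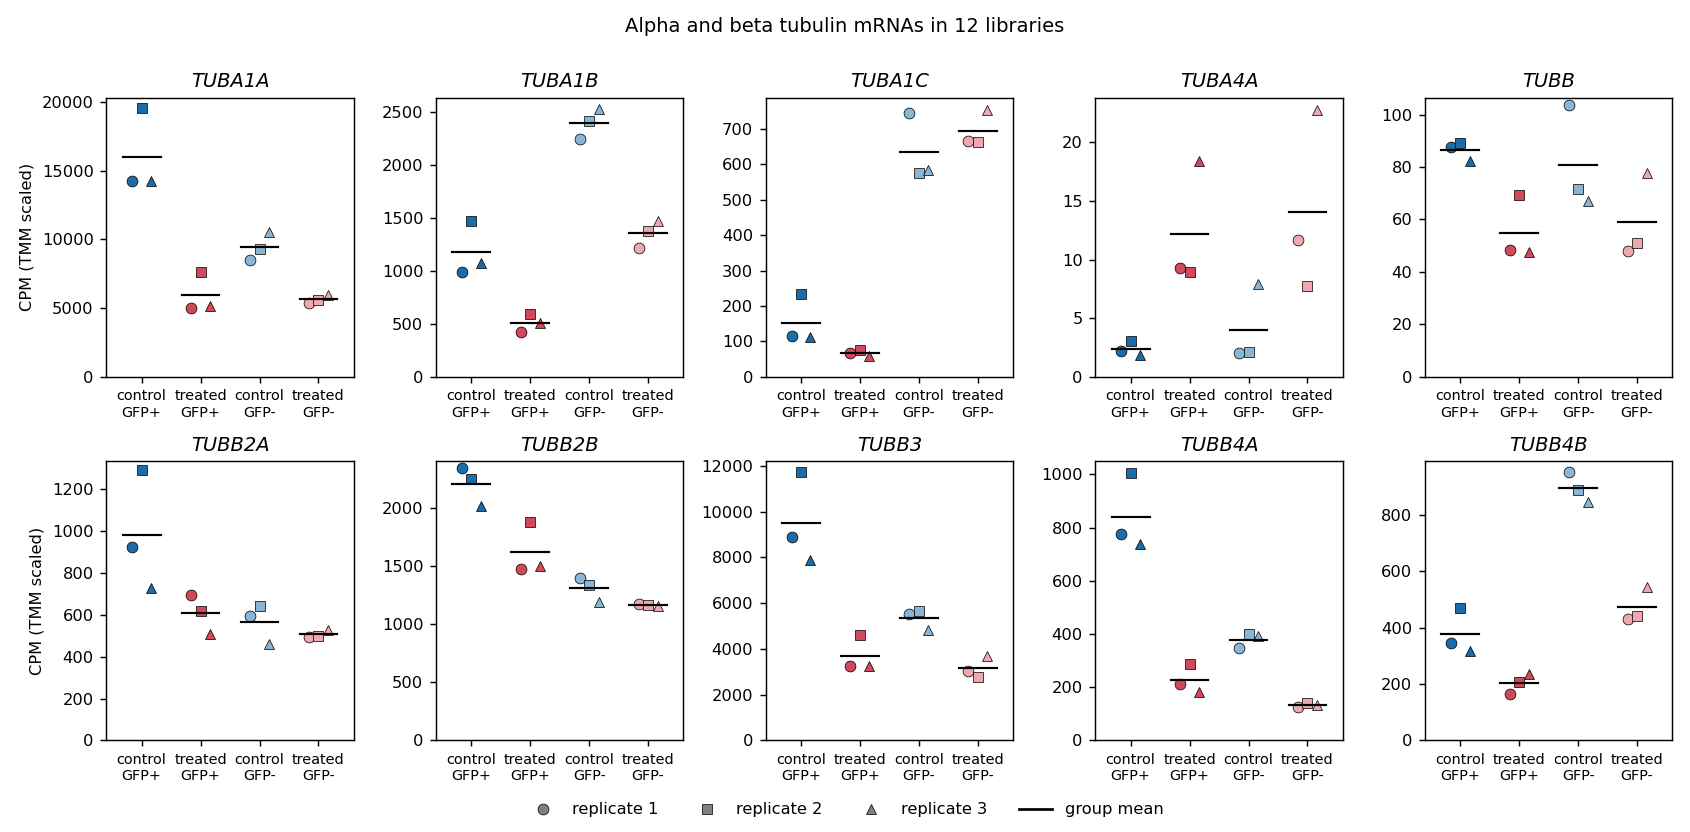
Level of each member in CPM (vertical axis, linear from 0, a separate range per panel) in the 4 groups of 3 libraries. Markers give the replicate number and the black line the group mean. In GFP positive cells 9 panels show all treated libraries below the controls, while TUBA4A shows them above, and TUBA1B, TUBA1C and TUBB4B are higher in GFP negative cells.

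The second question was the response of the GFP negative cells of the same cultures. In this comparison of 15513 genes TUBB4A was called lower, as were 9.75% of genes, and TUBA4A was called higher, as were 8.59%. At an adjusted p under 0.05 with no limit on fold, 5 members fell, against 16.2% of all genes, and 1 rose, against 15.3%. In 6 members all treated libraries lay below all controls, against 22.6% of genes, and in no member did all lie above, against 24.0%. TUBB4A fell 2.89-fold, a log2 change of -1.53 ± 0.15 (edgeR adjusted p = 0.000106). TUBB4B changed by -0.94 ± 0.15, TUBA1B by -0.85 ± 0.13, TUBB3 by -0.77 ± 0.14 and TUBA1A by -0.76 ± 0.12, with edgeR adjusted p between 0.00108 and 0.00266. The changes of TUBB, TUBB2A, TUBB2B and TUBA1C were -0.48, -0.18, -0.19 and 0.11, with edgeR adjusted p from 0.154 to 0.641. Without treated replicate 3, TUBB4B was called lower too, at -1.06, and TUBB passed the test at -0.73 (edgeR adjusted p = 0.0489).

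TUBA1C measured 744, 577 and 586 CPM in control GFP negative libraries and 666, 663 and 754 CPM in treated ones. These ranges overlapped, while those of TUBB4B, at 951, 890 and 846 CPM in controls and 431, 443 and 543 CPM after treatment, did not. The genes of dividing cells moved in the same libraries, with 7 of 8 called lower. Their part in the tubulin changes was not tested.

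TUBA4A measured 2.04, 2.09 and 7.91 CPM in control GFP negative libraries and 11.7, 7.78 and 22.8 CPM in treated ones. The third control overlapped the treated libraries, and it was the library with 2545 CPM of red blood cell markers and 11.6 CPM of platelet markers. Their part in its TUBA4A level was not tested. The log2 change was 1.80 ± 0.57 (edgeR adjusted p = 0.0363). Without that library it was 2.75 (edgeR adjusted p = 0.000654), with still 1 member called higher and 1 lower in GFP negative cells, and without any other single library it lay between 1.24 and 2.10. The call was lost, with edgeR adjusted p of 0.0686 to 0.206, without control replicate 1 or 2 or without treated replicate 1 or 3. Treated replicate 3 was the highest for TUBA4A in both sort fractions.

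Whether treatment acted differently in the 2 sort fractions was tested with the interaction term over all 12 libraries and 16226 genes. TUBA1C was the only member past an adjusted p of 0.05: its log2 change was lower in GFP positive than in GFP negative cells by a difference of -1.33 ± 0.33 (edgeR adjusted p = 0.0454), where 1.22% of all genes were called in this direction and 0.968% in the other. This call was lost in 9 of the 12 fits that left out 1 library, with the difference between -0.87 and -1.51, and held without control GFP negative replicate 1 or control GFP positive replicate 1 or 3. It was also lost with RLE factors, with library size alone and with at least 10 counts in every library. The sorts of a culture were paired by its number, and with the culture as a block the difference was -1.25 for TUBA1C (edgeR adjusted p = 0.0195) and -0.71 for TUBA1A (edgeR adjusted p = 0.0466), which without the block was -0.69 ± 0.23 (edgeR adjusted p = 0.141), or -0.92 without treated GFP positive replicate 2 (edgeR adjusted p = 0.0324). For the other 8 members the difference lay between -0.61 for TUBB3 and 0.54 ± 0.70 for TUBA4A, with edgeR adjusted p of 0.208 or more, so a difference in their response was not detectable with these libraries.

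**Figure D3:**
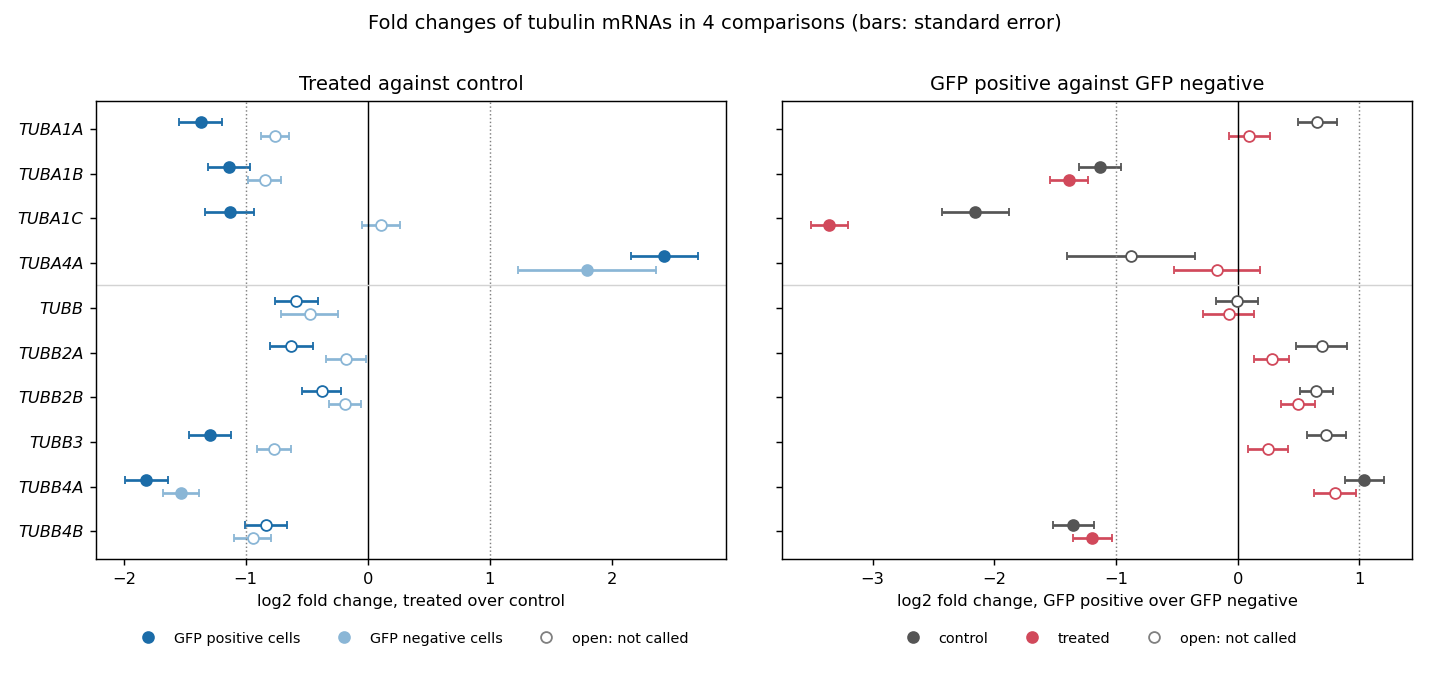
Log2 fold change of each member (horizontal axis), on the left for treated over control cells and on the right for GFP positive over GFP negative cells, with bars for the standard error and n = 3 per group. Filled circles passed an edgeR adjusted p of 0.05 and a fold change of 2, and dotted lines mark 2-fold. TUBA4A lies to the right of 0 in both treatment comparisons, and TUBA1C lies at -2.16 and -3.36 in the comparisons between sorts.

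The third question was how tubulin mRNA differed between GFP positive and GFP negative cells. The tests between sorts did not pair the sorts of a culture. Adding the culture as a block, with nothing else altered, changed no member's call in controls or in treated cells. In controls, TUBB4A was higher in GFP positive cells and TUBA1B, TUBA1C and TUBB4B were lower. Over 15404 genes tested, 1 member was called higher, where 7.47% of genes were, and 3 were called lower, where 15.3% were. At an adjusted p under 0.05 with no limit on fold, 5 members were higher, against 17.1% of genes, and 3 were lower, against 23.1%. In the same 5 members all GFP positive libraries lay above all GFP negative ones, against 29.1% of genes, and in the same 3 all lay below, against 24.1%. TUBA1C differed most, 4.46-fold lower with a log2 difference of -2.16 ± 0.28 (edgeR adjusted p = 0.000179). The log2 difference was -1.35 ± 0.17 for TUBB4B and -1.13 ± 0.17 for TUBA1B. TUBB4A was 2.06-fold higher, a log2 difference of 1.04 ± 0.16 (edgeR adjusted p = 0.0006), which was 0.97 without control GFP negative replicate 1 and 0.92 without control GFP positive replicate 2. TUBB3, TUBB2A, TUBA1A and TUBB2B were higher by 0.73, 0.69, 0.66 and 0.65 on the log2 scale, with edgeR adjusted p of 0.00339 to 0.0245. For TUBB2A this was 0.0551 without control GFP positive replicate 1 and 0.0909 without replicate 2. TUBB differed by -0.01 ± 0.18 and TUBA4A by -0.87 ± 0.53, and TUBA4A differed by 0.12 without the third GFP negative library and by -1.19, a call, without the first (edgeR adjusted p = 0.0299). With the trend of counts with transcript length removed, TUBA1B stood at -0.95, under 2-fold.

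In treated cells, TUBA1C, TUBA1B and TUBB4B were again lower in the GFP positive fraction, and no member was called higher. Over 15416 genes tested, 13.7% were called lower and 10.0% higher. At an adjusted p under 0.05 with no limit on fold, 3 members were lower, against 24.9% of genes, and 2, TUBB4A and TUBB2B, were higher, against 24.9% as well. TUBB2B missed this without treated GFP positive replicate 2 (edgeR adjusted p = 0.063), and TUBB2A and TUBB3 reached it with library size alone and with the GC or length trend removed. These 3 members also lay below in every GFP positive library, as did 29.6% of genes, and these 2 lay above in every one, as did 28.2%. TUBA1C measured 66.2, 75.2 and 58.6 CPM in treated GFP positive libraries against 666, 663 and 754 CPM in treated GFP negative ones, a gap of 10.2-fold (log2 difference -3.36 ± 0.15, edgeR adjusted p = 2.2e-08). The log2 difference was -1.38 ± 0.16 for TUBA1B and -1.20 ± 0.16 for TUBB4B. TUBB4A was higher by 0.80 ± 0.17, and with the GC trend removed by 1.06, which is past 2-fold, while TUBB4B then stood at -0.92, and at -0.90 with the length trend removed. TUBB6, a widely expressed beta tubulin, was called lower in both comparisons between sorts, at 49.3 ± 4.92 CPM in control GFP positive cells against 203 ± 36.8 CPM in control GFP negative cells. Genes of dividing cells were higher in the same GFP negative libraries, as given above, and their part in the levels of TUBA1B, TUBA1C, TUBB4B and TUBB6 was not tested.

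The summed levels of all alpha and all beta tubulin genes showed how much of the mRNA pool the family took. Summed alpha tubulin was 15338, 21299 and 15475 CPM in control GFP positive libraries and 5520, 8305 and 5719 CPM in treated ones, a log2 ratio of -1.42. Summed beta tubulin was 13427, 16902 and 11808 CPM in controls and 5891, 7712 and 5757 CPM after treatment, a log2 ratio of -1.12. Neither pair overlapped. In GFP negative cells the log2 ratios were -0.69 for alpha and -0.63 for beta tubulin, also without overlap. With 3 libraries against 3, the two-sided exact permutation test gave p = 0.1 for each of these 4, the smallest it allows. As a mean share of all counts, alpha tubulin went from 1.66% to 0.704% in GFP positive cells and from 1.26% to 0.733% in GFP negative cells. Beta tubulin went from 1.34% to 0.699% and from 0.882% to 0.540%.

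Shares within each family show how its make-up changed. Each share was taken of the counts of the 10 alpha or the 10 beta tubulin genes in the table, and counting error alone gave 95% Wilson intervals of at most 0.273 points to either side. TUBB3 held 66.3%, 69.5% and 66.7% of beta tubulin counts in control GFP positive libraries and 55.4%, 59.8% and 56.3% in treated ones. TUBB2B held 17.4%, 13.3% and 17.1% in those controls and 25.0%, 24.4% and 26.1% after treatment. The groups of TUBB3 and of TUBB2B did not overlap, so that the share of TUBB3 was lower by 10.4 points as that of TUBB2B was higher by 9.22 points. TUBB4A went from 5.99% ± 0.24 to 3.50% ± 0.29 (SD, n = 3) and TUBB2A from 6.88% ± 0.74 to 9.53% ± 1.97, both without overlap. In GFP negative cells TUBB3 went from 60.8% ± 0.61 to 55.7% ± 2.82, TUBB2B from 14.9% ± 0.37 to 20.6% ± 1.98, TUBB2A from 6.42% ± 0.60 to 8.97% ± 0.56 and TUBB4A from 4.35% ± 0.57 to 2.35% ± 0.27, again without overlap. Each of these exact permutation tests gave p = 0.1, or 0.125 and 0.111 after Benjamini-Hochberg adjustment over the 10 members in GFP positive and GFP negative cells, and this design allows no smaller p.

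TUBA1A held 92.3% ± 0.40 of alpha tubulin counts in control GFP positive cells and 90.8% ± 1.06 after treatment, a difference of -1.59 points without overlap. TUBA1B held 6.76% and 7.92%, all treated libraries above the controls. TUBA4A held 0.0135% ± 0.0015 before and 0.199% ± 0.111 after. TUBA1C held 0.855% ± 0.206 and 1.04% ± 0.15, which overlapped. In GFP negative cells TUBA1A held 75.6% ± 1.57 in controls and 73.2% ± 0.67 after treatment, and TUBA1B 19.2% ± 0.60 and 17.5% ± 0.74, so that all treated libraries lay below the controls for both. The share of TUBA1C was 6.47%, 4.68% and 4.30% in control GFP negative libraries and 9.16%, 8.66% and 9.19% in treated ones, without overlap. With counts divided by transcript length, its mean shares in these groups were 3.10% ± 0.72 and 5.51% ± 0.19.

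Shares were also compared between the sorts of each culture. In each of the 6 cultures TUBA1A held a larger share of alpha tubulin in GFP positive than in GFP negative cells, by 17.1 ± 1.37 points (SD over cultures). TUBA1B and TUBA1C held smaller shares in all 6, with differences of -11.0 ± 1.78 and -6.13 ± 2.16 points. Among the beta tubulins TUBB4A was higher in all 6 cultures by 1.40 ± 0.35 points, and TUBB4B and TUBB were lower in all 6, with differences of -6.32 ± 1.44 and -0.236 ± 0.177 points. The exact two-sided permutation over 6 cultures gave p = 0.0312 for each of these, the smallest it allows, and 0.0521 after adjustment over the 10 members. TUBA4A was higher in 3 of 6 cultures.

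**Figure D4:**
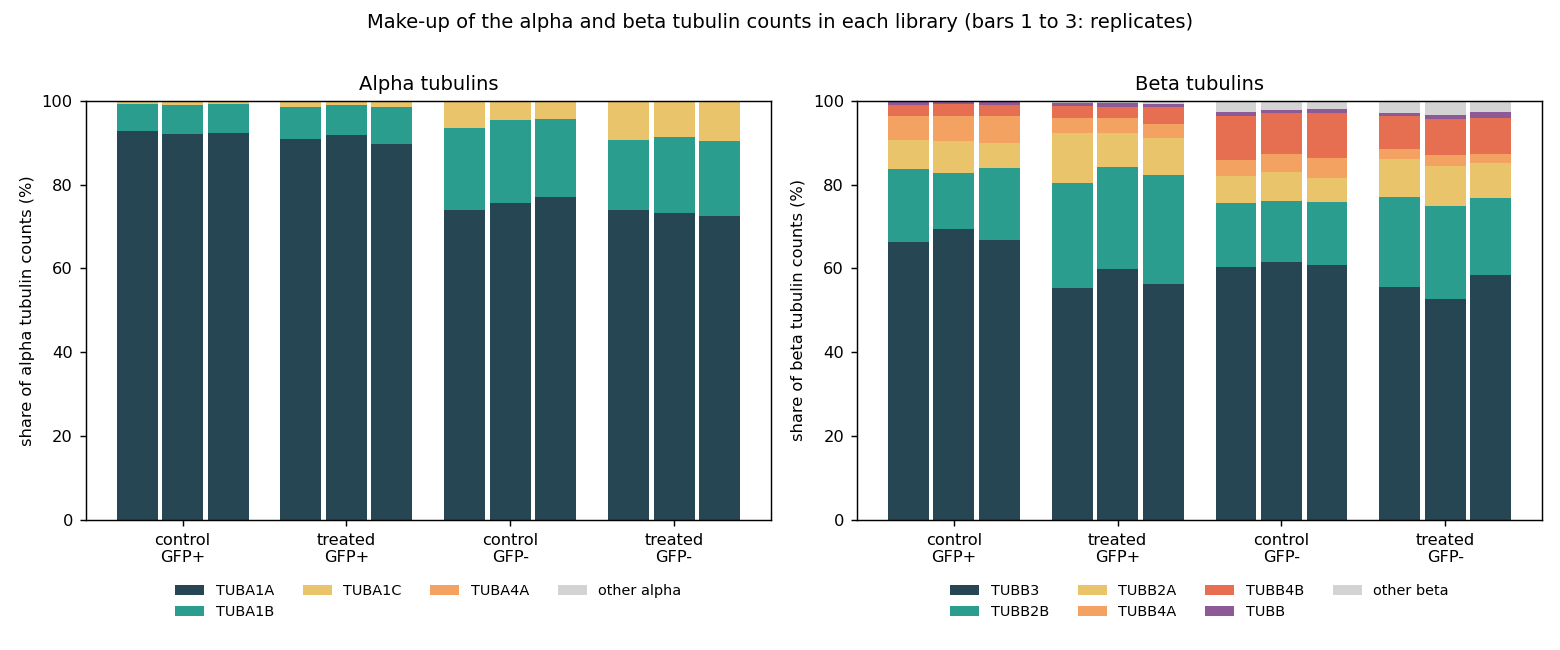
Make-up of the alpha tubulin counts (left) and beta tubulin counts (right) in each of the 12 libraries, as percent of all counts of that family, with 3 bars per group for replicates 1 to 3. TUBA1A fills 92.3% of alpha tubulin in control GFP positive cells and 75.6% in control GFP negative cells, and in treated GFP positive cells TUBB3 fills 57.2% and TUBB2B 25.2% of beta tubulin.

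Of 10 other alpha and beta tubulin genes in the table, TUBB6, TUBA8 and TUBB8 passed the filter on low counts, and none was called between treated and control cells. TUBB6 stood at 108 ± 19.6 CPM per kilobase in control GFP negative cells, above TUBB at 32.1 ± 7.92. It changed by -0.29 ± 0.17 in GFP positive cells (edgeR adjusted p = 0.163). TUBA8 stood at 4.54 ± 0.98 CPM in control and 5.11 ± 0.30 CPM in treated GFP positive cells. TUBB8 stayed at or below 1.22 CPM in every library.

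Genes that nucleate microtubules or fold tubulin were read in the same comparisons. Among 14 gamma, delta and epsilon tubulins and parts of the gamma-tubulin ring complex, which nucleates microtubules, 2 were called higher in treated GFP positive cells, where 12.8% of all genes were, and none lower, where 11.2% were. TUBE1, epsilon tubulin of the centriole, rose by a log2 change of 1.61 ± 0.20 (edgeR adjusted p = 2.10e-08). MZT1, a small subunit of the ring complex, rose by 1.54 ± 0.19 (edgeR adjusted p = 3.37e-08). Of the 8 subunits of the CCT chaperonin, which folds new tubulin, none was called, and the median log2 change was 0.15. At an edgeR adjusted p under 0.05 with no limit on fold, 4 of them rose, against 26.5% of all genes. By the same rule 1 fell, against 24.4%. Of 5 measured subunits of prefoldin, which hands tubulin to CCT, none was called either. Of the 8 tubulin folding cofactors, TBCD alone was called, falling from 156 ± 36.5 CPM in control to 74.5 ± 5.60 CPM in treated GFP positive cells (edgeR adjusted p = 8.21e-06), just past the limit of 2-fold.

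Of 12 genes of the tubulin autoregulation route, with the CCR4-NOT subunits, 6 rose and 1 fell at an adjusted p under 0.05 in GFP positive cells, against 26.5% and 24.4% of all genes, and none was called. TTC5, which recognises the growing tubulin chain, measured 40.1, 59.2 and 55.2 CPM in control GFP positive libraries and 25.2, 29.1 and 27.3 CPM in treated ones, without overlap. Its log2 change was -0.85 ± 0.18 (edgeR adjusted p = 0.000175). In GFP negative cells it was -0.10 ± 0.21 (edgeR adjusted p = 0.751), and the difference between the sorts had an edgeR adjusted p of 0.146. SCAPER, the adaptor that links TTC5 to CCR4-NOT, went from 23.0, 18.2 and 23.6 CPM to 35.7, 32.4 and 33.0 CPM, a log2 change of 0.71 ± 0.18 (edgeR adjusted p = 0.00148).

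Enzymes that act on tubulin came in short lists, of 2 to 12 measured genes. At most 2 genes of any list were called in GFP positive cells, where 12.8% of all genes were called higher and 11.2% lower. Lists this short do not show whether these enzymes differ from other genes. VASH1, which removes the last tyrosine from alpha tubulin, measured 188, 234 and 213 CPM in control GFP positive libraries and 95.1, 88.9 and 67.3 CPM in treated ones, a log2 change of -1.27 ± 0.17 (edgeR adjusted p = 7.86e-08). It was the only called gene of 4 in its list, and it was called lower in GFP negative cells too, at -1.27 ± 0.21. TTL, which adds the tyrosine back, changed by 0.28 ± 0.16 (edgeR adjusted p = 0.135). Among 12 measured genes of polyglutamylation, polyglycylation and deglutamylation, TTLL6, a glutamylase, fell by 1.76 on the log2 scale (edgeR adjusted p = 5.35e-08), and AGTPBP1, which removes glutamates, rose by 1.24 (edgeR adjusted p = 1.45e-07). Of the 2 measured acetylation genes none was called. Of the 9 severing genes FIGNL2, a fidgetin-like protein, alone was called, with a log2 change of -1.50 ± 0.16 (edgeR adjusted p = 1.03e-09).

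Across the 12 libraries the isotypes fell into patterns that followed the groups. The correlation of log2 CPM was 0.973 between TUBA1A and TUBB3, 0.966 between TUBB3 and TUBB4A and 0.977 between TUBA1B and TUBB4B, while TUBA1A and TUBA1C gave -0.056. These values describe 12 libraries that share 4 groups and 6 cultures. Among 9640 genes with a mean of at least 10 CPM, the gene most like TUBA1A was TAGLN3, at 0.987, followed by DEAF1 and C1QL1, both at 0.974. For TUBB3 these were PLPPR3, PCSK1N and PAFAH1B3, at 0.984 to 0.989. For TUBB4A they were PHOX2A, DBH and SEMA6C, at 0.989 to 0.993. For TUBA4A they were VMP1, UFL1 and TMED5, at 0.944 to 0.947.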

How the data were processed

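RNA of the sorted cells was extracted with Trizol and made into stranded mRNA libraries. Per the labels and the study's methods, the authors aligned reads with HISAT2 to hg38 and counted them per gene with featureCounts, and the deposited file holds raw counts for 12 libraries. Reads were aligned as single-end and reverse-stranded. Tool versions and how counting treated strand and reads with several matches are not given in the sources used here. Counts were tested with edgeR 4.0.16 (R 4.3.3, quasi-likelihood F-test, TMM, filterByExpr with a minimum count of 10) over the groups compared, p-values adjusted by Benjamini-Hochberg across every gene tested, and calls made at an adjusted p below 0.05 plus a change of 2-fold or more. CPM values, apart from the means of genes around TUBB and of all protein-coding genes beside them, were TMM scaled over all 12 libraries. Their ratios therefore differ slightly from fitted fold changes. DESeq2 1.42.0, other scalings and filters, GC and length corrections, a replicate block and leaving out libraries were alternatives. P-values measure the spread between thaws of 1 line. The tests were checked on simulated counts: of 200 genes changed 4-fold, edgeR recovered 200 in the GFP positive treatment comparison (15145 genes, 3 false calls), 195 in GFP negative cells (15302 genes, 10 false), 198 between control sorts (15221 genes, 10 false), 200 between treated sorts (15239 genes, 6 false) and 190 in the interaction (15981 genes, 11 false). Only 4-fold changes were simulated, and libraries were drawn independently, with nothing shared by the sorts of a culture. This check therefore does not show how well changes near or below 2-fold are called. The sorts of a culture share its number, and their deviations from group means correlated at 0.159 to 0.544 over 13368 genes with 10 counts in every library. Sequences were read from hg38 with GENCODE 44, and those of some members are not reported here. The 10 genes, the lists and the rule for naming others (up to 2 called genes of largest change per list, the 3 most correlated genes for 4 members) were chosen with earlier results of these data known, and the blood cell lists after the libraries were seen.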

Additional observations from a re-analysis of the deposited data

Results flagged for a closer look

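The response of TUBA1C to treatment differed between the sort fractions by the interaction term, with a log2 difference of -1.33 between GFP positive and GFP negative cells (edgeR adjusted p = 0.0454). The call was lost in 9 of the 12 fits that left out 1 library, down to -0.87, and with RLE factors, with library size alone and with at least 10 counts in every library. TUBA1C was lower in all 3 treated GFP positive libraries and overlapped its controls in GFP negative cells. Its level rests on a split of reads among the TUBA1 genes that is uncertain, as given above.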

How the results depend on the processing

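In GFP positive cells the count of members called lower after treatment was 5, fell to 2 when tested against a 2-fold change (glmTreat) and lay between 3 and 5 when single libraries were left out. With the GC trend removed, TUBB3 was no longer among them. In GFP negative cells the 1 member called higher, TUBA4A, became 0 with library size alone and with glmTreat and lay between 0 and 1 without single libraries, while the 1 member called lower became 2 with library size alone and lay between 1 and 2. Between sorts in controls, glmTreat gave 0 higher and 1 lower in place of 1 and 3, the length trend removed gave 2 lower, without TUBA1B, and leaving out libraries gave 0 to 1 higher and 3 to 4 lower, the fourth TUBA4A. In treated cells, 1 member was called higher with the GC trend removed, with or without the replicate block. In both of these fits TUBB4B was no longer called lower, and neither was it with glmTreat or with the length trend removed. For the interaction, the 1 member called lower became 2 with the replicate block, 0 with RLE factors, library size alone or at least 10 counts in every library, and 0 to 1 without single libraries. With the GC trend removed, the TUBB3 share in GFP positive cells differed by -8.11 points. The cause of these changes was not tested.

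Changes of sign fell on values that were not called with all libraries. TUBB2A in GFP negative cells was 0.035 with the GC trend removed. TUBB between control sorts was 0.020 with DESeq2 and RLE, 0.037 with library size alone, 0.0072 with no filter, 0.017 with the replicate block, 0.095 with all 12 samples, 0.025 with the GC trend removed, 0.12 with the length trend removed, 0.042 with block and GC together, and -0.11 to 0.20 without single libraries. Between treated sorts it was 0.095, 0.055 and 0.0028 with library size alone, length, and block with GC, and -0.31 to 0.16 without single libraries. TUBA4A between treated sorts was 0.011, 0.028, 0.062 and 0.060 with library size alone, GC, length, and block with GC, and -0.63 to 0.34 without single libraries, and between control sorts -1.19 to 0.12. TUBA1A between treated sorts ranged from -0.16 to 0.18. In the interaction, without single libraries, TUBA4A ranged from -0.41 to 1.10, TUBB from -0.40 to 0.074, and TUBB4B from -0.091 to 0.31, and TUBB was 0.057 with library size alone.

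Library size alone moved the median of all genes to 0.14 between treated and control GFP positive cells, 0.22 between treated sorts and 0.20 in the interaction. The interaction called 157 genes higher and 198 lower, against 519 and 745 with the replicate block, 411 and 378 with DESeq2, 266 and 84 with library size alone, and 233 and 105 with at least 10 counts in every library. Between treated sorts, library size alone turned 1541 higher and 2117 lower calls into 2230 and 1770. Control and treated libraries of the same number and sort fraction had correlations of -0.082 to 0.25. That range overlaps the 0.159 to 0.544 between sorts of a culture, so whether these numbers pair the cultures cannot be told. The main tests did not pair them, and a replicate block by that number left 5 members lower and 1 higher in GFP positive cells. Apart from TUBA1A in the interaction, the block alone changed no member's call. Among the members, depth limited TUBA4A most, with 57 to 695 counts.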
